A study of Homo sapiens with 8 samples.

Results

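The HOX cluster genes encode homeodomain transcription factors that lie in 4 chromosomal clusters, HOXA, HOXB, HOXC and HOXD, together with antisense and long noncoding RNAs transcribed from the same DNA. Members were taken by symbol: a HOX letter and number, or 1 of 7 noncoding RNA symbols (HOTAIR, HOTTIP, HOTAIRM1, HOXA-AS2, HOXB-AS1, HOXB-AS3 and HOXC-AS1). This gave 23 of the 30434 rows of the deposited count table, with 4 members in HOXA, 2 in HOXB, 12 in HOXC and 5 in HOXD. The symbol HOXC5 stood on 2 rows, a protein-coding gene and a processed transcript. GENCODE 29 annotates 39 coding HOX genes, of which 19 had a row: 3 of 11 in HOXA, 2 of 10 in HOXB, all 9 in HOXC and 5 of 9 in HOXD. The other 20 coding genes were not analysed here.

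The libraries came from SKBR3, a human breast cancer cell line with amplified ERBB2, grown in DMEM with GlutaMAX and 10% fetal bovine serum. The 4 control libraries carry the genotype label WT. The 4 knockdown libraries came from a stable SKBR3 line transduced with lentiviruses carrying 3 individual short hairpin RNAs against FOXA1, a forkhead pioneer factor that opens chromatin in luminal epithelial cells. The labels do not say whether the controls received a control vector or whether replicates were separate cultures, so p-values measure the spread between these libraries, which may be technical.

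HOX genes are switched on in the order in which they lie on the chromosome during development, and low-numbered genes pattern anterior and high-numbered genes posterior structures. Their proteins bind DNA through the homeodomain, often beside cofactors of the TALE class such as PBX and MEIS. In adult cells the set of expressed clusters is a stable mark of positional identity, held silent or active by Polycomb and Trithorax complexes. HOTAIR, an antisense RNA of the HOXC cluster, is known for high levels in part of breast cancers.

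The homeobox sequences of 6 of the 7 coding HOXC members that passed the low-count filter are shown first, because the results turn on telling these related genes apart. HOXC8 was left out of this comparison. Each run holds the last 60 of the 180 homeobox bases, from GENCODE 29 transcripts, and covers the helix that contacts the major groove of DNA. Capitals mark the 32 positions at which the 6 genes do not all share the base, and small letters the 28 that they share.
HOXC13: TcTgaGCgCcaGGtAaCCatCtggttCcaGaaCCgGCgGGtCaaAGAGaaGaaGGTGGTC
HOXC11: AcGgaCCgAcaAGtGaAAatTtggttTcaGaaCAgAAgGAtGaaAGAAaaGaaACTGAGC
HOXC10: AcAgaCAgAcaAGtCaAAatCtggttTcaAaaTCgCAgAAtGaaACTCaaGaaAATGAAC
HOXC9: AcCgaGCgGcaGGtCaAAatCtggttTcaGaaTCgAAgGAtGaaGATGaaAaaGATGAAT
HOXC6: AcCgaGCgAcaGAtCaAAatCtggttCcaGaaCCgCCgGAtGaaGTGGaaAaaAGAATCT
HOXC4: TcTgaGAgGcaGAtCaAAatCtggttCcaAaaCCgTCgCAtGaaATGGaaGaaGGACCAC
Over the whole homeobox, identity among the 15 pairs of these genes ran from 50.6% to 72.2%, highest for HOXC10 and HOXC9. The longest identical run between any pair was 20 bases. That is shorter than the 31 bases of a sequence word, the unit used here to ask which transcripts share sequence, and than the 101 bp reads. It holds for the homeobox of these 6 genes only. Over whole transcripts, 14.1% of the words of HOXC6 and 16.9% of those of HOXC4 occur in other genes, and none of HOXC8.

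FOXA1, the targeted gene, fell from 191.7 ± 1.65 to 3.958 ± 0.34 CPM (CPM is the count per 1000000 of the scaled library total, given as mean ± SD, n = 4 each), which left 2.06%. Library totals were 19087878 to 23786684 counts, and the floor taken for no detection, 3 counts, was 0.123 to 0.153 CPM. The luminal SKBR3 markers, 8 of 8 with a row, summed to 16700 to 18700 CPM in control and 11000 to 11900 CPM in knockdown, and ERBB2 fell from 7308 ± 365 to 1340 ± 52.9 CPM. Of the 7 of these markers that were tested, 4 fell and 3 rose: KRT8 (4519 to 5619 CPM), KRT18 (2312 to 3457 CPM) and EPCAM (179.4 to 226.2 CPM). The 4 basal markers summed to 2.15 to 2.93 CPM in control and 9.01 to 10.3 CPM in knockdown, where TP63 rose (0.147 to 7.87 CPM), KRT17 fell (1.22 to 0.18 CPM) and KRT5 was not called. For the 5 of 6 fibroblast markers with a row the sums were 5.27 to 6.98 and 10.8 to 11.9 CPM, with COL1A2 and DCN at 3 or fewer counts in every library. COL3A1 rose, from 1, 0, 0 and 1 counts in control to 97, 104, 90 and 93 in knockdown. PDGFRB also rose (0.41 to 2.83 CPM), and COL1A1 fell (5.38 to 4.33 CPM). The 4 endothelial markers (20.7 to 22.1 against 19.8 to 22.4 CPM) and 4 of 5 leukocyte markers (1.14 to 1.77 against 1.34 to 1.8 CPM) overlapped, and PTPRC had 3 or fewer counts in every library. The 2 hormone receptor genes summed to 1.21 to 1.65 and 0.128 to 0.306 CPM. The part of these markers in the HOX results was not tested. In bulk RNA, fewer cells expressing a gene and less RNA per cell cannot be told apart.

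Every member with enough counts to be tested lay in the HOXC cluster, and all were lower after FOXA1 knockdown. Of the 23 members, 8 passed edgeR's low-count filter: HOXC13, HOXC11, HOXC10, HOXC9, HOXC8, HOXC6, HOXC4 and HOTAIR. All 8 fell (adjusted p under 0.05 by edgeR's quasi-likelihood test), 7 of them at least 2-fold, and in all 8 the knockdown libraries lay below every control library. The background is broad: 77.1% of the 16430 tested genes were called, 37.7% as lower and 39.4% as higher. Of all tested genes, 13.4% were called as lower by at least 2-fold, and 35% had every knockdown value below every control value. The median log2 fold change of the 8 tested members was -2.27, against 0.02 over all tested genes. HOXC11, HOTAIR, HOXC8 and HOXC4 had under 10 counts in every knockdown library. They passed the filter through their controls, so they could be kept only as falls. With no filter, HOXB13 and HOXD9 were also called higher, and HOXC-AS1 and the HOXC5 processed transcript lower. The shared direction and the median thus rest partly on the filter. Of the 15 members that were not tested, 10 had at most 3 counts in every library. Each tested member gave p = 0.0286 in an exact two-sided permutation test, the smallest that 70 divisions of 8 libraries allow. Percentages left below are ratios of mean CPM, and ± on a log2 fold change is its standard error.

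**Figure D1:**
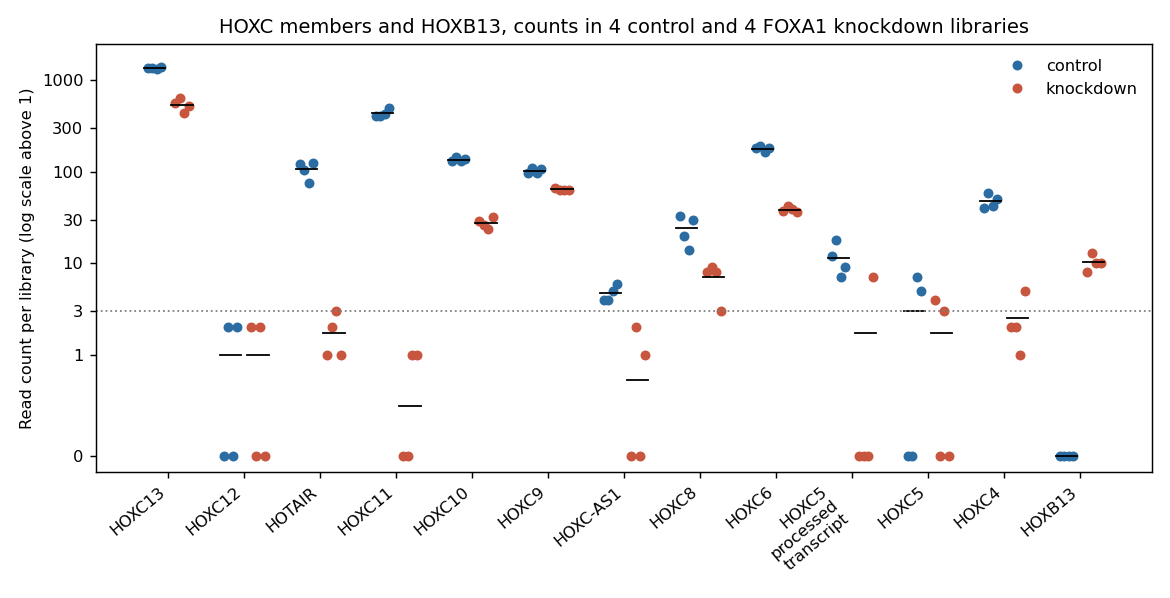
Read counts per library (vertical axis, log scale above 1) of the 12 HOXC members in gene number order and of HOXB13 (horizontal axis), with 1 point for each of 4 control (blue) and 4 knockdown (red) libraries, a bar at each mean, and a dotted line at the floor of 3 counts. HOXC9 has 96 to 110 against 64 to 66 counts, and HOXC11 falls from 405 to 504 counts to 0 or 1.

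HOXC13, the last gene of the cluster, which is known in hair follicle and nail differentiation, held the highest level of any member per length of transcript. Its counts were 1376, 1376, 1323 and 1402 in control and 570, 642, 438 and 526 in knockdown. The groups stood apart, and the knockdown libraries kept at least 438 counts. The level fell from 62.18 ± 1.2 to 24.29 ± 1.63 CPM, leaving 39.1%, a log2 fold change of -1.35 ± 0.05 (adjusted p = 2.98e-18 by edgeR). Per kilobase of exon this was 25.7 and 10.0 CPM, which placed HOXC13 at rank 1811 and then 4253 of 16209 ranked genes. On GRCh38 it spans chr12:53938765-53946544 on the plus strand, and 172 bp of its exons (7.1%) lie opposite exons of HOXC13-AS. HOXC12, the next gene, had 0, 2, 0 and 2 counts in control and 2, 0, 2 and 0 in knockdown.

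HOTAIR, the long noncoding RNA between HOXC12 and HOXC11 (chr12:53962308-53974956, minus strand), was close to undetected after knockdown. Control libraries held 122, 106, 75 and 124 counts and knockdown libraries 1, 2, 3 and 1. Control replicate 3 was the lowest control and still lay far above every knockdown library. Since each knockdown library was at or under 3 counts, the fold is a bound: HOTAIR was at least 35.6-fold lower, from 4.83 ± 0.90 CPM in control (adjusted p = 1.25e-15 by edgeR). Its control level per kilobase was 1.855 CPM, below that of HOXC13 and HOXC11.

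HOXC11, a posterior gene whose body holds the 5' end of HOTAIR (chr12:53973126-53977643, plus strand), had the largest bound of any member. It had 411, 405, 434 and 504 counts in control and 0, 0, 1 and 1 in knockdown. Control replicate 4 was the highest, and the knockdown libraries were all at or next to 0. The difference was at least 147-fold against the floor, from 19.9 ± 1.56 CPM in control (adjusted p = 1.41e-22 by edgeR). Per kilobase the control level of 6.09 CPM was next to that of HOXC13 among members. The gene bodies of HOXC11 and HOTAIR overlap on opposite strands, but no exon base is shared, and no sequence word of 31 bases of HOXC11 occurs in a transcript of another gene.

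HOXC10, a regulator of hindlimb motor neuron identity and posterior patterning (chr12:53985065-53990279, plus strand), kept a measurable level. Counts were 133, 144, 130 and 137 in control and 29, 26, 24 and 32 in knockdown, with little spread in either group. CPM fell from 6.18 ± 0.27 to 1.25 ± 0.17, leaving 20.2% (log2 fold change -2.30 ± 0.10, adjusted p = 4.09e-14 by edgeR). HOXC9, a regulator of thoracic motor neuron organisation (chr12:53994895-54003337, plus strand), had the smallest fold change of the tested members. Its counts were 97, 110, 96 and 107 in control and 66, 64, 64 and 64 in knockdown. The groups did not overlap. CPM fell from 4.65 ± 0.24 to 2.91 ± 0.27, leaving 62.6% (log2 fold change -0.68 ± 0.08, adjusted p = 1.47e-05 by edgeR). HOXC9 was not called in a test against a 2-fold change (adjusted p = 1.0 by edgeR's glmTreat). Per kilobase HOXC10 and HOXC9 held similar control levels, 2.65 and 2.77 CPM, and unlike knockdown levels, 0.54 and 1.73 CPM. Of the HOXC10 exons 7.12% are shared with the row ENSG00000273049, which had 0 to 5 counts, and of the HOXC9 exons 9.71% lie opposite HOXC-AS2. On the same strand HOXC9 shares 73 exon bases (4.35%) with HOXC6, and 2.67% of its 31-base words occur there.

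HOXC8, known in thoracic skeletal patterning (chr12:54009106-54012362, plus strand), had the lowest control level per kilobase of the tested members, 0.579 CPM. Counts were 33, 20, 14 and 30 in control and 8, 9, 8 and 3 in knockdown. Control replicate 3 came nearest to the knockdown libraries. CPM fell from 1.09 ± 0.38 to 0.31 ± 0.12, leaving 28.7% (log2 fold change -1.79 ± 0.42, adjusted p = 2.45e-05 by edgeR). HOXC6, studied in breast and prostate tumours (chr12:53990624-54030823, plus strand), had 182, 190, 163 and 182 counts in control and 37, 42, 39 and 36 in knockdown. Both groups were tight and far apart. CPM fell from 8.14 ± 0.42 to 1.74 ± 0.18, leaving 21.3% (log2 fold change -2.23 ± 0.08, adjusted p = 4.21e-15 by edgeR).

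HOXC4, the lowest-numbered HOXC gene (chr12:54016931-54056030, plus strand), had 40, 58, 42 and 50 counts in control and 2, 2, 1 and 5 in knockdown. Knockdown replicate 4 alone among the knockdown libraries was above the floor of 3 counts. CPM fell from 2.15 ± 0.35 to 0.11 ± 0.08, leaving 5.21% (log2 fold change -4.20 ± 0.39, adjusted p = 1.06e-11 by edgeR). That share rests on 10 knockdown counts in all, a mean of 2.5, which is under the floor. Without knockdown replicate 4 the log2 fold change was -4.76 and 3.37% was left, and HOXC4 was at least 16-fold lower against the floor, a bound chosen after seeing the data. HOXC6 and HOXC4 share 484 exon bases on the same strand, 13.7% of the HOXC6 and 17.8% of the HOXC4 exons, and 16.9% of the 31-base words of HOXC4 occur in other genes, HOXC6 and HOXC5 among them. How reads were divided among these genes is not given in the sources used here, so their separate values are uncertain to that extent.

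The HOXC4 promoter is printed because HOXC4 fell and its promoter is in the table, which gives the same sequence for HOXC5. The 300 bases are chr12:54016638-54016937 on the plus strand of RefSeq GRCh38.p14, and run from 250 bases before to 50 after the start. The capitals are the only match to the forkhead letters TGTTTAC, which lies on the minus strand at bases 56 to 62, 195 bases before the start.
HOXC4 promoter: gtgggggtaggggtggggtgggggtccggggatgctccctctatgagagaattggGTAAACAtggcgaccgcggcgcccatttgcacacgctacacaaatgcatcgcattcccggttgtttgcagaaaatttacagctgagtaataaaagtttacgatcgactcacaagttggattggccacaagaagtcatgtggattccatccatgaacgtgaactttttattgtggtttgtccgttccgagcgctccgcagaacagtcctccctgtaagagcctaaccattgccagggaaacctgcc
The sequence is 51.7% G and C, against a median of 58.7% over all promoters in the table, and holds 15 CpG pairs. On either strand TGTTTAC occurs in 3.42% of the 35116 promoters of this length and in 2 of the 10 listed for members, those of HOXC4 and HOXC5. These 2 are the same sequence, so this is 1 match counted for both genes, and the shares cannot be compared. A second forkhead form, TATTTAC, occurs in 2.67% of all promoters and in 1 of the 10, HOXD1. The letters TGATTNAT, a form bound by HOX and PBX together, occur in 2.82% of all promoters and in 0 of the 10. These counts are matches of letters only.

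The minor HOXC members had too few counts for the test. The HOXC5 processed transcript (chr12:54017110-54035361, plus strand) had 12, 18, 7 and 9 counts in control and 0, 0, 0 and 7 in knockdown, so 1 knockdown library matched the lowest control in counts while the other three were at 0. The coding HOXC5 row had 0, 0, 7 and 5 counts in control and 4, 0, 3 and 0 in knockdown, with overlapping groups. The pair shares 1081 exon bases, and 97.7% of the 31-base words of the processed transcript also occur in other genes, so neither row stands for 1 gene alone. HOXC-AS1, an antisense RNA within the HOXC9 locus, had 4, 4, 5 and 6 counts in control and 0, 2, 0 and 1 in knockdown, at least 1.59-fold lower against the floor.

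Summed over the 9 coding HOXC genes, which does not depend on how reads were divided among them, the counts were 2272, 2305, 2209 and 2419 in control and 718, 785, 580 and 667 in knockdown. The sums still depend on how reads were divided with rows outside them that share exon bases, such as the HOXC5 processed transcript. In CPM the sums were 104.0, 104.6, 104.9 and 104.2 against 30.5, 32.2, 29.5 and 30.9. The control libraries spread by less than 1 CPM around their mean, and the knockdown libraries kept 29.5% (104.5 ± 0.385 to 30.77 ± 1.08 CPM, log2 ratio -1.76, not tested).

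The make-up of the HOXC output was described by shares, without a test. HOXC13 gave 59.5% ± 1.11 of coding HOXC counts in control and 78.9% ± 2.58 in knockdown (SD, n = 4 each). HOXC11 went from 19% ± 1.49 to 0.0806% ± 0.0935, and HOXC9 from 4.45% ± 0.222 to 9.49% ± 1.19. HOXC10 (5.91% to 4.07%), HOXC6 (7.79% to 5.66%) and HOXC4 (2.06% to 0.364%) took smaller shares in knockdown. With counts divided by exon length, HOXC13 took 62.7% and 76.7%, HOXC9 6.77% and 13.3%, and HOXC11 14.9% and 0.058%.

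**Figure D2:**
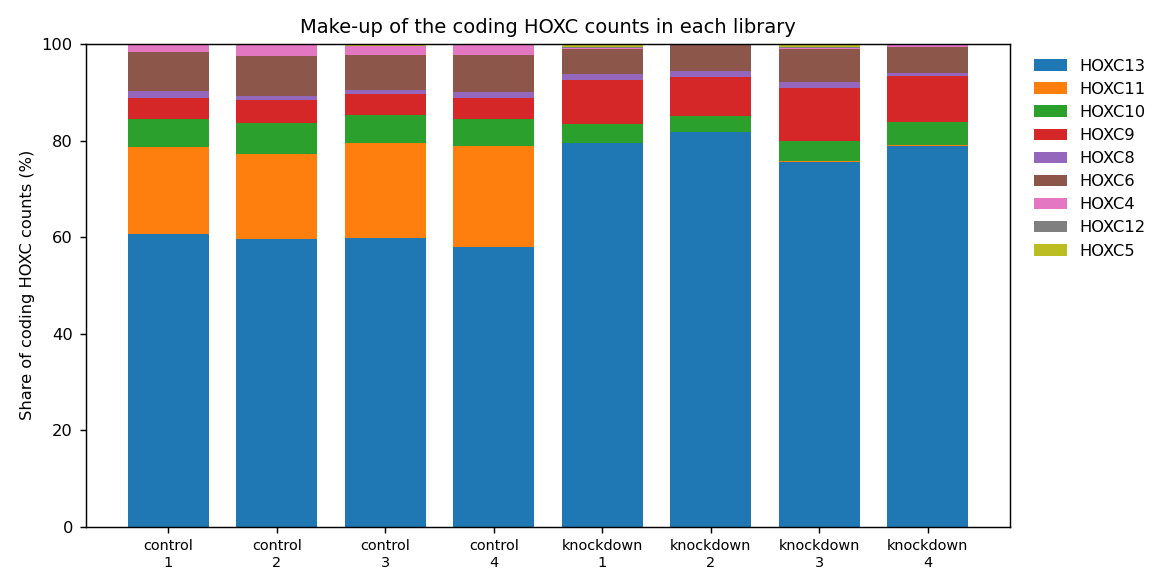
Share of coding HOXC counts in percent (vertical axis) taken by each gene (colours) in each of the 8 libraries (horizontal axis). The HOXC11 band, between 17.6% and 20.8% in control, is nearly absent in knockdown, and the HOXC13 band widens from 58.0% to 60.6% in control to 75.5% to 81.8% in knockdown.

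Neighbouring members changed by different amounts. For each of 6 neighbouring pairs of tested coding genes, chosen after their values had been seen, the log2 ratio of the 2 genes was computed in every library and compared between groups by an exact two-sided permutation test, adjusted over the 6. The ratio of HOXC13 to HOXC11 was higher in knockdown by 7.64 ± 0.56, and that of HOXC11 to HOXC10 was lower, at -6.70 ± 0.47. The size of both depends on the 0.5 added to each count, since HOXC11 was at the floor. The ratio of HOXC10 to HOXC9 differed by -1.62 ± 0.09 and that of HOXC9 to HOXC8 by 1.08 ± 0.43. For HOXC6 over HOXC4 the difference was 1.94 ± 0.43, which also depends on the added 0.5 and ran from 1.66 to 2.32 over the libraries left out. These 5 pairs each gave exact permutation p = 0.0286, adjusted 0.0343, with no overlap between groups. HOXC8 and HOXC6 were the exception, with a difference of 0.46 ± 0.39, overlapping groups and exact permutation p = 0.2 (adjusted 0.2). HOXC11, HOXC8 and HOXC4 passed the low-count filter through their controls and could be kept only as falls. Apart from HOXC10 over HOXC9, every pair includes a gene kept in this way. For those pairs the test is not free of the filter and gives no separate support for a difference between neighbours. In gene number order from HOXC13 to HOXC4 the percentages left were thus 39.1, under 1 for HOXC11 by its bound, 20.2, 62.6, 28.7, 21.3 and 5.21, which follow no single direction along the cluster.

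Of the transcripts inside the HOXC cluster that are no members, 2 were tested and both fell. HOXC13-AS, the antisense RNA that overlaps the start of HOXC13, had 191, 198, 174 and 205 counts in control and 105, 103, 85 and 82 in knockdown. It fell from 8.71 ± 0.31 to 4.20 ± 0.29 CPM, leaving 48.2% (log2 fold change -1.05 ± 0.06, adjusted p = 1.91e-10 by edgeR). The lincRNA ENSG00000260597, which lies within the HOXC4 gene body, had 35, 32, 37 and 30 counts in control and 11, 11, 10 and 9 in knockdown (log2 fold change -1.72 ± 0.11, adjusted p = 3.58e-07 by edgeR). It was named after its values had been seen. HOXC-AS2 had 1 to 5 counts in control and 0 to 2 in knockdown, and HOXC-AS3 2 to 7 and 0 to 2, neither of them tested. ENSG00000273049 had 0 counts in every control and 5 in knockdown replicate 2 alone.

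The nearest tested genes outside the cluster were not called. CALCOCO1, 211 kb before HOXC13, had a log2 fold change of -0.07 ± 0.06 (adjusted p = 0.481 by edgeR), and SMUG1, a DNA glycosylase gene 65.2 kb beyond HOXC4, of -0.05 ± 0.06 (adjusted p = 0.421 by edgeR), both with overlapping groups. With libraries scaled by their totals only, both changed sign (0.02 and 0.03), as did SMUG1 under upper-quartile scaling. Of the 25 nearest tested genes on each side, 11 fell and 33 rose, with a median log2 fold change of 0.25 on the HOXC13 side and 1.05 on the HOXC4 side, against 0.13 over 854 tested genes of chromosome 12. These genes reached as far as 988.8 kb from the cluster on the HOXC13 side and 1898 kb on the HOXC4 side. NFE2, an erythroid transcription factor gene on the HOXC4 side, had 2, 1, 0 and 1 counts in control and 80, 93, 68 and 70 in knockdown, at least 25.5-fold higher (adjusted p = 3.71e-15 by edgeR).

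**Figure D3:**
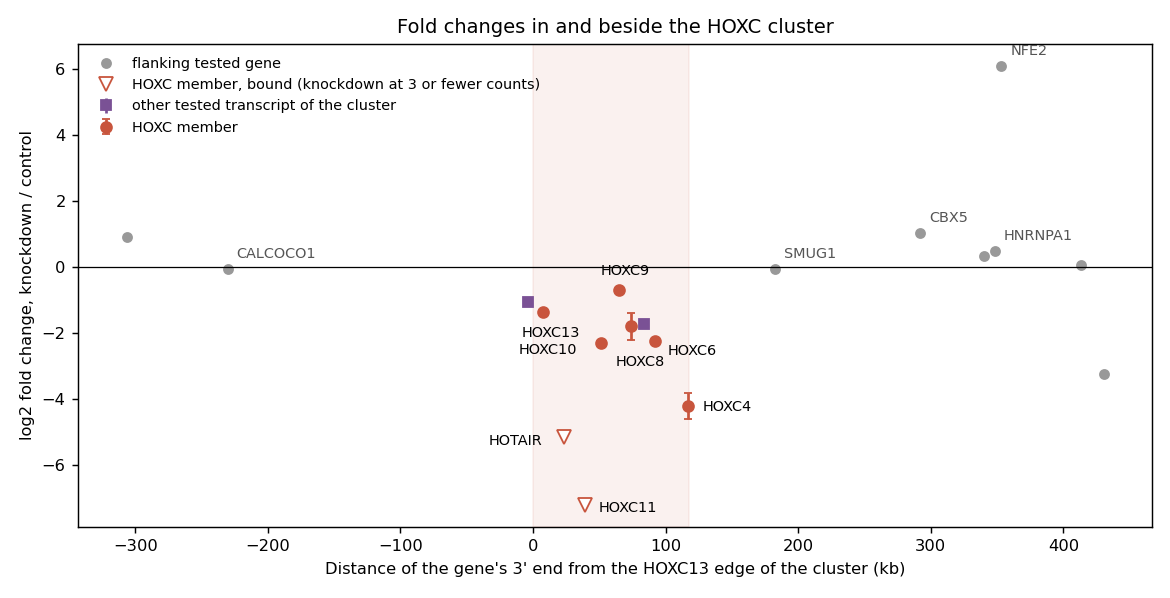
Log2 fold change of knockdown over control (vertical axis) against the distance of each gene's 3' end from the HOXC13 edge of the HOXC cluster in kb (horizontal axis, cluster shaded), for tested genes, with standard errors for members. The 8 members and the 2 other cluster transcripts lie below 0, with HOXC11 and HOTAIR drawn at their bounds, while CALCOCO1 and SMUG1 lie next to 0. HOXC11, HOTAIR, HOXC8 and HOXC4 passed the low-count filter through their controls and could be kept only as falls.

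HOXA, HOXB and HOXD members were near or at 0 counts in control. Summed over the coding members with a row, HOXA counts were 0 in all 4 controls and 1, 4, 2 and 0 in knockdown, HOXB 0 in all controls and 9, 13, 11 and 10, and HOXD 1, 2, 0 and 1 against 7, 6, 2 and 3. The HOXB counts came almost wholly from HOXB13, a posterior gene of prostate and hindgut known from breast cancer expression signatures (chr17:48724763-48729178, minus strand). HOXB13 had 0 counts in all 4 controls and 8, 13, 10 and 10 in knockdown, so the groups did not overlap, as in 72% of tested genes in either direction. The level was 0.46 ± 0.09 CPM in knockdown, at least 3.38-fold above the floor (exact two-sided permutation p = 0.0286, the smallest possible). HOXB13 did not pass the low-count filter. With no filter it was called (log2 fold change 6.37, adjusted p = 5.11e-11 by edgeR, a size that depends on the prior count). Of its 31-base words, 0.844% occur in other genes on the same strand.

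HOXD9, a posterior gene of the HOXD cluster, had 0 counts in all controls and 5, 4, 1 and 2 in knockdown, too few for a fold against the floor. HOXA9, HOXA10, HOXA11, HOTAIRM1, HOXB7, HOXD1, HOXD4, HOXD8 and HOXD10 had at most 1 count in any control library and at most 3 in any knockdown library. Differences among these 9 were not detectable at this depth, and 78.2% of the 31-base words of HOXD4 occur in other genes.

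**Figure D4:**
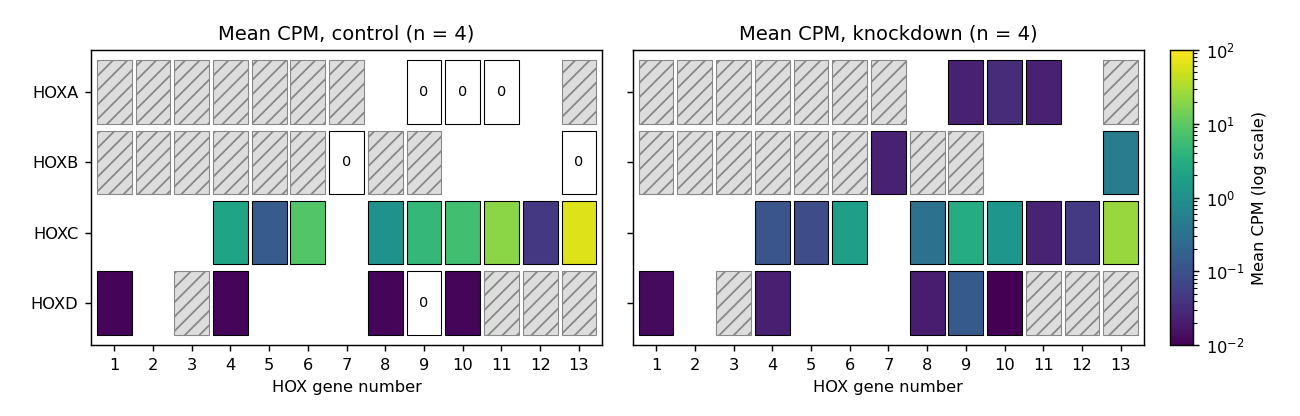
Mean CPM on a log colour scale of the coding members by cluster (rows) and gene number (columns), in control (left) and knockdown (right), n = 4 each; hatched boxes are annotated genes not analysed here, and blank positions hold no gene. HOXC holds every level above 1 CPM, and HOXB13 is the brightest box outside HOXC in knockdown, at 0.461 CPM.

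Genes beside the other clusters moved in both directions. SKAP2 and HIBADH, the first tested genes on either side of HOXA, fell (log2 fold changes -1.96 ± 0.18 and -1.83 ± 0.03, adjusted p = 4.16e-10 and 2.31e-23 by edgeR), and 28 of the 50 flanking genes fell and 15 rose there. The median was 0.25 on the SKAP2 side and -1.63 on the HIBADH side. Around HOXB, SNX11 fell by 0.29 and CALCOCO2 rose by 0.37 on the log2 scale (14 fell, 27 rose, median 0.21). Around HOXD, LNPK fell by 1.25 and MTX2 rose by 0.19 on the log2 scale (18 fell, 24 rose, median 0.06). The flanking genes reached as far as 4270 and 3289 kb from HOXA, 1973 and 1697 kb from HOXB, and 5126 and 6927 kb from HOXD. Their medians thus cover unlike and wide stretches. In the prepared list of neighbours of all 4 clusters, 30 genes were tested, of which 7 fell and 19 rose (median 0.26). Over all tested genes, 37.7% were called lower and 39.4% higher.

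Among the TALE homeodomain cofactors, which bind DNA together with HOX proteins, 11 of 12 were tested: 3 fell, 6 rose and 2 were not called (median 0.57). With libraries scaled by their totals only, 2 fell and 7 rose, and under upper-quartile scaling 2 and 6. The shares over all tested genes were 37.7% lower and 39.4% higher. MEIS2 had 216, 267, 221 and 259 counts in control and 8, 7, 8 and 3 in knockdown, the largest fall of the list (log2 fold change -5.20 ± 0.32, adjusted p = 2.33e-19 by edgeR). MEIS3 had 17, 23, 17 and 28 counts in control and 174, 191, 119 and 128 in knockdown (2.82 ± 0.18, adjusted p = 1.66e-14 by edgeR). PKNOX1, which like MEIS proteins pairs with PBX, rose from 16.7 ± 0.80 to 36.9 ± 1.00 CPM (1.14 ± 0.04, adjusted p = 3.73e-16 by edgeR). MEIS1 overlapped between groups, with 48, 26, 31 and 45 counts against 31, 38, 45 and 39 (0.02 ± 0.26, adjusted p = 0.928 by edgeR).

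Of the Polycomb genes, which encode the complexes that hold silent HOX clusters closed, 36 of 36 were tested: 6 fell, 25 rose and 5 were not called (median 0.33). CBX2, a chromodomain subunit of the PRC1 complex, fell most, from 406.5 ± 17.3 to 119.7 ± 4.47 CPM (-1.76 ± 0.04, adjusted p = 2.88e-23 by edgeR). PHF19, a PRC2 accessory subunit, rose most, from 0.44 ± 0.07 to 9.75 ± 0.76 CPM (4.45 ± 0.13, adjusted p = 4.25e-19 by edgeR). EZH2, the catalytic subunit of PRC2, rose from 75.3 ± 3.45 to 95.9 ± 2.16 CPM (0.35 ± 0.04, adjusted p = 2.44e-08 by edgeR). Of the Trithorax, COMPASS and cohesin genes, 33 of 33 were tested: 10 fell, 17 rose and 6 were not called (median 0.17). With library totals only, or upper-quartile scaling, 7 fell and 21 rose. AFF1, a partner in elongation complexes, fell from 53.1 ± 1.91 to 14.3 ± 0.98 CPM (-1.89 ± 0.06), and MLLT10 rose by 1.04 ± 0.05 (adjusted p = 2.07e-20 and 2.6e-16 by edgeR). KMT2A, the methyltransferase that maintains HOX expression, fell by 0.29 on the log2 scale (85.3 ± 2.42 to 69.6 ± 5.68 CPM, adjusted p = 8.27e-06 by edgeR). Of its exon bases 17.9% are shared with the row ENSG00000285827, which had a mean of 34.0 counts. CTCF, which insulates domains within HOX clusters, rose by 0.17 (adjusted p = 0.000343 by edgeR). Beside the counts of both lists, 37.7% of all tested genes were called lower and 39.4% higher.

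Retinoic acid is a classic inducer of HOX genes. Of 26 retinoid signalling genes and upstream regulators, 18 were tested: 9 fell and 9 rose (median -0.07, which became 0.02 with library totals only). The median rests on which scarce genes are kept: it was -0.80 (8 fell, 5 rose) with a mean of at least 50 counts required, and 0.42 (10 fell, 9 rose) with no filter. In the main fit, 37.7% of all tested genes were called lower and 39.4% higher. RARA, a retinoic acid receptor, fell from 117.1 ± 5.94 to 31.5 ± 0.80 CPM (-1.89 ± 0.04, adjusted p = 2.85e-22 by edgeR), and 11.8% of its exons lie opposite RARA-AS1, which had a mean of 15.5 counts. CRABP2, which carries retinoic acid to its receptor, had 5582, 5770, 5913 and 5768 counts in control and 26, 27, 25 and 24 in knockdown (-7.83 ± 0.06, adjusted p = 6.87e-31 by edgeR). CYP26B1, which degrades retinoic acid, had 3, 1, 1 and 0 counts in control and 299, 291, 222 and 253 in knockdown, at least 87.4-fold higher (adjusted p = 1.94e-20 by edgeR).

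Of 52 homeobox genes outside the clusters, 26 were tested: 7 fell, 18 rose and 1 was not called (median 1.02). Among all tested genes, 37.7% fell and 39.4% rose by the same threshold. IRX3 had 1233, 1356, 1344 and 1353 counts in control and 2, 0, 3 and 5 in knockdown (adjusted p = 7.63e-24 by edgeR). Its knockdown mean of 2.5 counts is under the floor, and without knockdown replicate 4 it was at least 447-fold lower, also a bound chosen after seeing the data. MEOX1 had 0 counts in every control and 74, 84, 48 and 76 in knockdown, at least 23.0-fold higher (adjusted p = 9.99e-14 by edgeR).

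**Figure D5:**
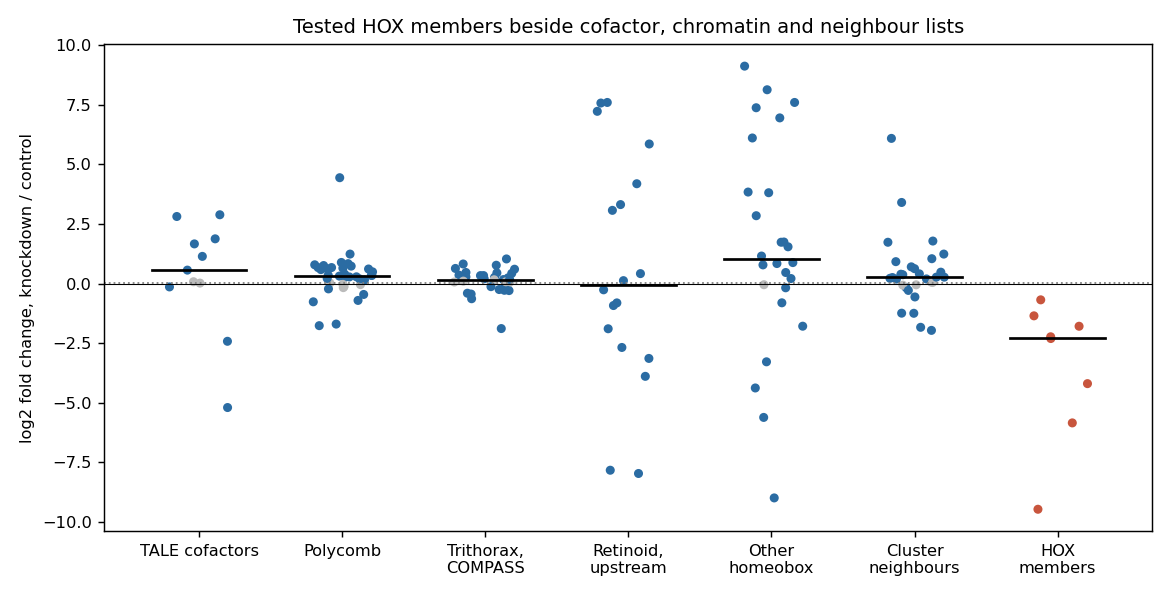
Log2 fold change of knockdown over control (vertical axis) of every tested gene of each list and of the tested HOX members (horizontal axis), 1 point per gene, blue or red where called and grey where not, with a bar at the median and a dotted line at the median of all tested genes. The tested HOX members all lie below 0 (median -2.27), and each of the other 6 lists shown has genes on both sides of 0. This contrast rests partly on the low-count filter, since HOXC11, HOTAIR, HOXC8 and HOXC4 could be kept only as falls. HOXB13 and HOXD9, called higher with no filter, are not plotted. Values of genes at the floor in 1 group depend on the prior count.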

How the data were processed

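Trizol RNA from SKBR3 cells gave 4 control and 4 FOXA1 knockdown mRNA libraries, read on a NextSeq550 as paired 101 bp reads, per the labels' protocols. The authors deposited whole-number counts per versioned Ensembl identifier with a symbol column. FastQC, Salmon 1.9, DESeq2 3.16 and hg38 are named in the submitters' processing notes without their roles. The rounding of estimated counts, the annotation release and the use of strand are not given in the sources used here, and reads of overlapping genes may have been divided or mixed. The table held 30434 rows, each with at least 2 counts in all, of which 29358 identifiers (96.46%) matched GENCODE 29 on GRCh38, the source of positions, exon lengths and homeobox sequences. Promoters are RefSeq's (GRCh38.p14).

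In R 4.3.3 with edgeR 4.0.16, filterByExpr (minimum count 10, total 15) kept 16430 genes and left out 14004. Libraries were scaled by TMM (factors 0.9655 to 1.04) and compared by glmQLFit (robust) and glmQLFTest, with Benjamini-Hochberg adjustment over all tested genes and a threshold of 0.05. The prior count was 0.125, and the biological coefficient of variation was 4.56%. Standard errors were taken from the SD of log2 CPM in each group, after an offset of 0.5 counts. A group with no library above 3 counts was set to 3 counts in each library, and its fold is given as a bound that covers counting error only. Single values were tested by exact two-sided permutation over 70 divisions. The fit was tested on simulated counts with 1 common dispersion. It recovered 85 of 87 genes changed 2-fold and 108 of 108 changed 4-fold, and 13 of 206 calls (6.31%) were false. Far fewer genes changed there than the 77.1% called in the data, so it cannot show how the scaling behaves here. The neighbouring pairs were chosen after values had been seen. Same-numbered control and knockdown libraries did not deviate together.

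The members and lists were chosen with earlier results of these data known. Named genes are all tested members, the largest called rise and fall of each list with a mean of at least 50 counts in either group, MEIS1, MEIS2, PKNOX1, EZH2, KMT2A, CTCF and RARA, the first gene on either side of each cluster, and FOXA1 and ERBB2 as checks. Some items that the rule covers are not reported here. Counts of calls and the named fold changes were recomputed with scaling by RLE, upper quartiles or totals alone, with other low-count filters, DESeq2 1.42.0, limma 3.58.1 voom, no robust estimation, a replicate block, a threshold of 0.01, a test against a 2-fold change, and leaving out each library; pair ratios only by leaving out libraries, and shares and motif counts not at all. Figures used Python 3.11.15 and matplotlib 3.10.9.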

Additional observations from a re-analysis of the deposited data

Results flagged for a closer look

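In 70 groups of 4 libraries checked for a library far from the other three (Dixon's test), 3 stood out, where chance alone gives about 1 in 20, or 3.5. The HOXC5 processed transcript was at 0.324 CPM in knockdown replicate 4 and at 0 in the other knockdown libraries (gap over range 1.0). SKAP2, beside HOXA, was at 16.63 CPM in control replicate 4 against 19.19 to 19.52 CPM in the other controls (0.886). CRABP2 was at 1.273 CPM in knockdown replicate 3 against 1.105 to 1.11 CPM in the other knockdown libraries (0.97).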

How the results depend on the processing

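The log2 fold changes of the 8 tested members were recomputed under 150 alternatives in all, of which 149 kept their direction and their side of the threshold, and none reversed. The exception was HOXC9 in the test against a 2-fold change. The ranges were -1.39 to -1.27 for HOXC13, -6.26 to -5.63 for HOTAIR, -9.96 to -8.99 for HOXC11, -2.39 to -2.22 for HOXC10, -0.73 to -0.60 for HOXC9, -1.97 to -1.55 for HOXC8, -2.29 to -2.15 for HOXC6 and -4.763 to -3.996 for HOXC4. With no filter on low counts 12 members were called in place of 8. The added ones were HOXB13 (6.37), HOXD9 (4.62), HOXC-AS1 (-2.50) and the HOXC5 processed transcript (-2.64), all with sizes that depend on the prior count. HOXB13 also passed the filter and was called when any 1 control library or knockdown replicate 1 was left out (6.36 to 6.48), so that 8 to 9 members were called over the libraries left out. The test against a 2-fold change called 3863 genes in place of 12675, and 51 list members in place of 136, as a stricter null hypothesis must call fewer. Over the libraries left out, 12498 to 12865 genes and 135 to 139 list members were called. The log2 ratio of summed HOXC counts, -1.76, was -1.70 with upper-quartile scaling, -1.68 with library totals only, and -1.79 to -1.74 over the libraries left out. CALCOCO1 changed sign with library totals only (0.018), and SMUG1 with library totals only (0.034) and upper-quartile scaling (0.0097), while neither was called. MEIS1 ran from -0.13 to 0.17 over the libraries left out, and was below 0 without control replicate 2, control replicate 3 or knockdown replicate 3, also uncalled. The cause was not tested. With the replicate block, a term for the replicate number, 12453 genes and 8 members were called. Same-numbered libraries correlated at -0.0375 to 0.052 in their deviations, and unlike-numbered ones at -0.0392 to 0.0619. No pairing is seen in these values, but they cannot tell whether same-numbered libraries were handled together, which the labels do not say. Depth limits the members outside HOXC, where 3 counts are 0.123 to 0.153 CPM.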
